A study of Mus musculus with 22 samples.

Results

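Anterior Primitive Streak cells were the 433 cells, of 77674 in the authors' final cell table, that the authors named so. The name was read from that table, the counts came from the matrix of the 10x lane each cell was captured in, and the day and the gastruloid came from the authors' barcode calls. Gastruloids are clumps of mouse embryonic stem cells which, in culture, go through parts of gastrulation and make several of its cell types. The study sequenced single cells of gastruloids between day 3 and day 5 and asked how single gastruloids of one age differ from each other.

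All gastruloids came from one embryonic stem cell line, E14Tg2A, of wild type genotype, and all received the same treatment: 300 cells per well aggregated for 48 h, after which CHIR99021 was applied for a limited time at 3 µM. CHIR99021 blocks GSK3 and so switches on the Wnt pathway. No untreated gastruloids and no second line entered the groups compared here. In the 10X experiment, gastruloids of day 3 and of day 4 were each pooled and run on 1 lane. MULTI-seq marks cells with lipid-anchored DNA barcodes; here each gastruloid had its own, and a pool of gastruloids was split over several lanes. MULTI-seq 3 held 24 gastruloids of day 3 in a pool of their own, 16 of day 3.5 and 16 of day 4 in a second pool, and 16 of day 4.5 and 16 of day 5 in another. The MULTI-seq 2 gastruloids analysed here were of days 4 and 4.5; its 4 samples of days 3 and 3.5 are not analysed here. MULTI-seq 1 held 24 gastruloids of day 5. The lanes with files numbered 18 and gave 30065021 to 238431052 unique molecular identifiers (UMIs, each standing for 1 captured RNA molecule). Separate gastruloids were taken as replicates, so the p-values measure the spread between gastruloids of 1 line and not between lines. In the gene fits some gastruloids held only 1 Anterior Primitive Streak cell, so there this spread also includes that between cells.

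The primitive streak is the furrow of the gastrulating embryo through which epiblast cells leave the surface layer. Its anterior end, under high Nodal and Wnt signalling, gives rise to definitive endoderm and to the axial mesendoderm of prechordal plate, node and notochord, while cells that leave further back form mesoderm. Goosecoid (Gsc), Foxa2, Lhx1 and Eomes are transcription factors of the anterior streak: Eomes acts upstream in endoderm and early mesoderm formation, Foxa2 is needed for node and endoderm, and Lhx1 and Gsc mark the organizer and its anterior mesendoderm.

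Of the 433 cells, 378 were called day 3, 20 day 3.5, 20 day 4 and 3 day 4.5. The day was left between 3.5 and 4 for 11 cells and between 4 and 4.5 for 1 cell. A gastruloid could be assigned to 179 cells, while 102 carried no clear barcode, 43 were barcode doublets and 109 came without an identifiable gastruloid. No 2 of the cells shared a barcode sequence between lanes, and 6 had a barcode that recurred in a cell of another type in another lane. All 433 lay in 1 of the authors' graph clusters, of 2708 cells, whose other 2275 cells were named Early Nascent Mesoderm, so these names split a single cluster. Barcode doublets made up 14.4% of the 271 day 3 cells of MULTI-seq 3 (exact 95% interval 10.4% to 19.1%) against 12.1% of all cells of those lanes, and they were left out of the levels and detection shares below.

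The authors had also matched each cell to an atlas of mouse embryos, in an original and an extended version. On the original atlas 342 of the 433 cells matched anterior primitive streak, 52 definitive endoderm, 31 nascent mesoderm and 8 primitive streak. On the extended atlas 276 matched anterior primitive streak, 103 primitive streak and 54 nascent mesoderm. The stage matched was E7.25 for 208 and E7.0 for 207 cells on the original atlas, and E7.0 for 401 cells on the extended one. The extended atlas gave the anterior streak name to 989 cells in all, of which the authors' clusters named 463 Mature Endoderm (46.8%) and 276 Anterior Primitive Streak (27.9%). The match changed with the day of the gastruloid. At day 3, 325 of 378 cells matched anterior primitive streak and 18 definitive endoderm (4.76%), whereas 11 of 20 cells at day 3.5 (55%) and 14 of 20 at day 4 (70%) matched definitive endoderm. The match on the original atlas thus had the same name for most day 3 cells and another name for most of the few later cells.

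Of 21 genes that the results turn on, 19 had an entry among the RefSeq promoters of build GRCm38.p6, the build of the authors' mm10 mapping; Gata6 and Lefty1 were the others. The 250 bases upstream of the annotated start are printed for 4 genes: the streak marker Gsc, the Wnt antagonist Dkk1, the Wnt target Sp5 and Trh, which encodes the precursor of thyrotropin-releasing hormone and had the largest change with time. Capitals mark TATAAA, the letters of a TATA box, wherever they occur. They also mark the core of a Tcf site (CTTTGA), through which Wnt signalling acts on its targets. Both were searched on either strand. TATAAA lies 164 to 159 bases before the start in Gsc and 54 to 49 in Dkk1.
Gsc, chr12:104473237-104473486, minus strand: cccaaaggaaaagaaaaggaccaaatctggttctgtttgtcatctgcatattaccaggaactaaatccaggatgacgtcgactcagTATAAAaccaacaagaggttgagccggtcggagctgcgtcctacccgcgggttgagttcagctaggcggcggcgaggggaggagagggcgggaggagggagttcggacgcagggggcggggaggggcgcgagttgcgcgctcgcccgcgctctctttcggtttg
Dkk1, chr19:30549497-30549746, minus strand: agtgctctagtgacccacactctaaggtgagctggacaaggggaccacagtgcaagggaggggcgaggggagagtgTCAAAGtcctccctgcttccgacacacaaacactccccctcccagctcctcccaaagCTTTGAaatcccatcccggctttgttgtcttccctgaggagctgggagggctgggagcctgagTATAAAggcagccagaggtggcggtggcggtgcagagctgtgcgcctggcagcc
Sp5, chr2:70474673-70474922, plus strand: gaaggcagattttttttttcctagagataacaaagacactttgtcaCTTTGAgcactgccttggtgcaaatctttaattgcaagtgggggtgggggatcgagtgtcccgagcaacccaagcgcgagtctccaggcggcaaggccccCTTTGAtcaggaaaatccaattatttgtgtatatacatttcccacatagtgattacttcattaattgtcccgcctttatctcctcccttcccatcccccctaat
Trh, chr6:92244651-92244900, minus strand: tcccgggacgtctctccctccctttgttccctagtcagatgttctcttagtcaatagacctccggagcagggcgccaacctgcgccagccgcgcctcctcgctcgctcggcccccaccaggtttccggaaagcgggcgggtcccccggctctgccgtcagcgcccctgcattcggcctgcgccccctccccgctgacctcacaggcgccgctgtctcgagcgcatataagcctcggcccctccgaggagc
Both Dkk1 and Sp5 held the Tcf core at 2 places, Frzb and Emb held it at 1, and the window of Trh held none of the motifs searched. The Tcf core occurred in 13.8% of 32851 promoter windows and in those of 4 of the 19 genes, and TATAAA in 12.4% and in those of 5. The bicoid-type core TAATCC, to which Gsc and Otx2 proteins can bind, occurred in 6.25% of windows and in those of 2 of the 19 genes, Otx2 and Pou5f1, and the Smad-binding core CAGAC in 42.2% and in those of 8. The forkhead motif TGTTTAC (3.17% of windows) and the T-box core TCACACC (3.33%) occurred in none of the 19. These are letter matches in 1 window per annotated start and say nothing of binding.

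The 4 markers were high in Anterior Primitive Streak cells at day 3. Levels are CPM, the usual depth-scaled counts, of the summed UMIs of a gastruloid's cells, and each gene was compared only with itself in another cell type. In the 4 gastruloids with at least 10 such cells and at least 10 Primitive Streak cells, Lhx1 stood at 1020, 1345, 979 and 1170 CPM against a median of 35.5 CPM in the Primitive Streak cells of the same gastruloids. Gsc stood at 250.8, 334, 286 and 401 CPM against a median of 21.7 CPM. Foxa2, at 187, 149.5, 132 and 207 CPM against 27.5 CPM, and Eomes, at 142, 166, 112 and 80.8 CPM against 24.1 CPM, were higher in the same direction with smaller ratios. None of the 4 genes overlapped between the types in these gastruloids. In the 18 gastruloids with at least 3 cells of each type, each of the 4 genes was higher than in Primitive Streak cells in 18 of 18. The authors' names rest on the expression of the same cells, and how the graph cluster was split is not known here, so these levels are a description with no test. Of 18291 genes with a count, 5.48% were higher than in Primitive Streak cells in each of the 4 gastruloids and 13.9% lower in each. Depth differed between the types. Over the day 3 cells of MULTI-seq 3 the sums were 7122587 UMIs in Anterior Primitive Streak, 187703439 in Primitive Streak and 34377779 in Early Nascent Mesoderm. A gene of low level can thus read 0 in Anterior Primitive Streak cells and be counted as lower. The part of depth in the counts of higher and lower genes was not tested.

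Of the definitive endoderm list 12 of 22 genes with a count were higher than in Primitive Streak cells in each of the 4 gastruloids and 2 lower, and its genes summed to a median of 1844 against 679 CPM. Of the anterior streak list 12 of 17 were higher and 1 lower (3102 against 444 CPM), and of the nascent mesoderm list 2 of 12 were higher and 5 lower, with a larger sum (1336 against 423 CPM); Lhx1 is in both of these lists. The 10 genes of at least 50 CPM with the largest median log2 ratio were Sox17, Cer1, Lhx1, Gata6, Msx1, Flt1, Dkk1, Gsc, Otx2 and Frzb. Sox17, an endoderm transcription factor, ranged from 128 to 283 CPM in the 4 gastruloids against a median of 0.75 CPM in Primitive Streak cells. It was higher in 15 of the 18 gastruloids with at least 3 cells of each type and at 0 in the Anterior Primitive Streak cells of the other 3. Cer1, a secreted inhibitor of Nodal, BMP and Wnt ligands, ranged from 19.3 to 135 CPM and was at 0 in the Primitive Streak cells of all but 1 of the 4 gastruloids, which had 2.13 CPM; it too was higher in 15 of 18, with 0 in the other 3. The Wnt antagonists Dkk1 (median 127 against 7.38 CPM) and Frzb (55.5 against 4.86 CPM), and the head organizer factor Otx2 (135 against 10.1 CPM), were higher in 4 of 4 gastruloids. Gata6, a factor of endoderm and early mesoderm, had a median of 144 against 3.10 CPM, and Hhex, of the anterior endoderm, 62.8 against 6.52 CPM.

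T, Pou5f1 and several caudal genes were lower than in Primitive Streak cells, though not all genes of their lists were. Of the pluripotency list 10 of 21 genes with a count were lower in each of the 4 gastruloids and 2 higher (sums of 1439 and 1472 CPM), and of the primitive streak list 5 of 14 were lower and 7 higher (3184 and 2750 CPM). T (Brachyury), the factor of the whole streak and notochord, ranged from 275 to 356 CPM against 549.6 to 610.3 CPM, and was lower in 18 of 18 gastruloids with at least 3 cells of each type. The pluripotency factor Pou5f1 (Oct4) had a median of 360 against 737 CPM and was also lower in 18 of 18. The caudal factors Nkx1-2 (0.689 against 56.7 CPM) and Cdx2 (8.82 against 84.7 CPM) were lower in 4 of 4 gastruloids, as were Arl4c, Igfbp3, Crabp2, Apln and Pim2. Nodal itself was not higher: its median was 24.2 CPM against 41.3 CPM, and it was lower in 12 of 18. Of the Nodal pathway list 7 of 21 genes with a count were higher in each of the 4 gastruloids (33.3%) and 1 lower. Its genes summed to a median of 1270 against 458 CPM.

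Early Nascent Mesoderm, the other name within the graph cluster, shared part of this set. Eomes was higher there, at 225 to 252 CPM against 80.8 to 166 CPM in Anterior Primitive Streak cells of the same 4 gastruloids, and Anterior Primitive Streak was the higher type in 3 of 18 gastruloids with at least 3 cells of each. T did not separate the types, with medians of 317 and 302 CPM. Mesp1, the factor of nascent and cardiac mesoderm, had a median of 64.7 CPM against 489 CPM and was lower in 15 of 18. Foxa2 was the marker that set the types furthest apart, at a median of 168 CPM against 9.35 CPM, while Lhx1 (1095 against 697 CPM) and Gsc (309.7 against 100.9 CPM) were present in both. By the same rule, the genes furthest above Early Nascent Mesoderm were Sox17, Cer1, Trh, Foxa2, Id3, Lefty1, Krt18, Cldn6, Hhex and Krt8, which include epithelial keratins and a claudin as well as the Nodal inhibitor Lefty1. Mixl1, a homeobox gene of the streak, had a median of 228 against 325 CPM and was lower in 4 of 4 and in 13 of 18. Of 16544 genes with a count, 5.84% were higher than in Early Nascent Mesoderm in each of the 4 gastruloids and 10.1% lower in each; of the definitive endoderm list 13 of 21 were higher, and of the nascent mesoderm list 10 of 12 were lower.

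**Figure D1:**
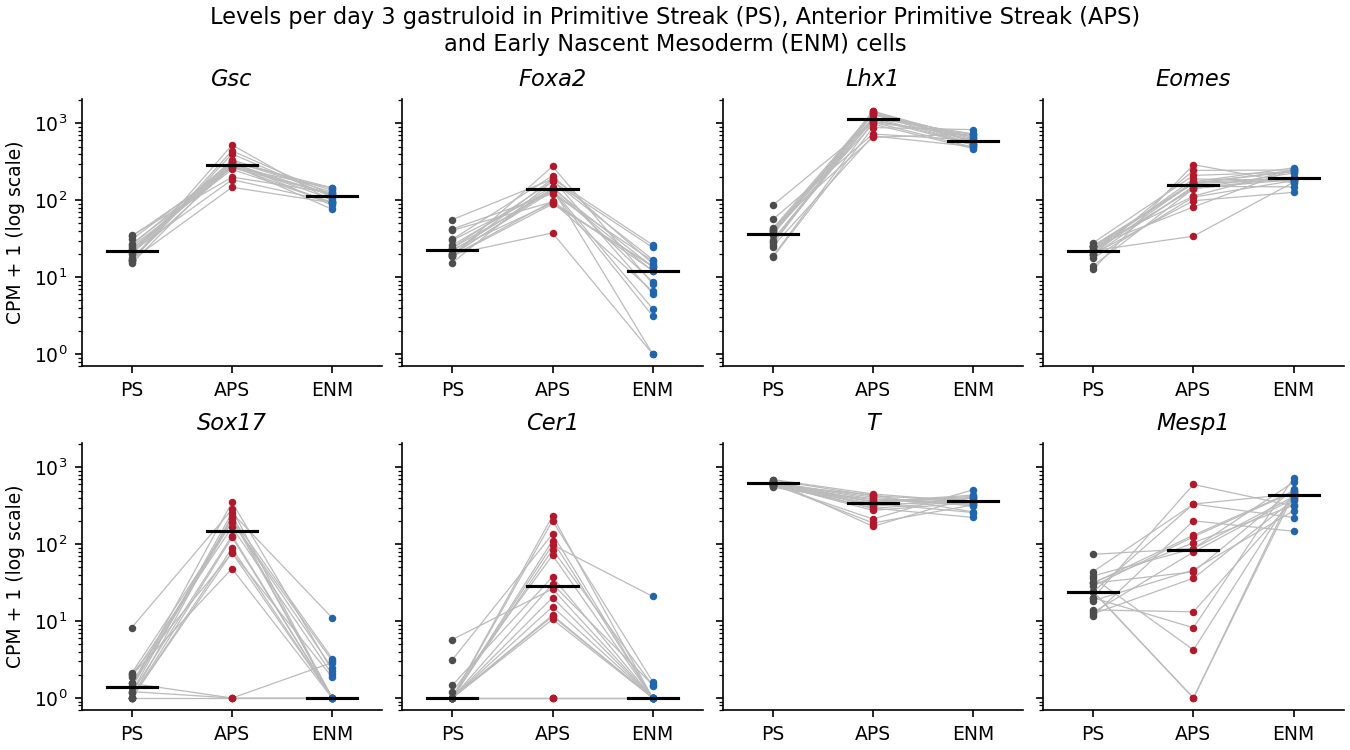
Levels of 8 genes in Primitive Streak (PS), Anterior Primitive Streak (APS) and Early Nascent Mesoderm (ENM) cells, as CPM + 1 on a log scale. Each point is 1 of the 18 day 3 gastruloids of MULTI-seq 3 with at least 3 cells of each type compared, thin lines join the types of 1 gastruloid, and black bars are medians. Gsc, Lhx1, Foxa2, Sox17 and Cer1 peak in APS cells, whereas Eomes and Mesp1 are highest in ENM cells and T in PS cells.

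In 1 day 3 gastruloid, the one with most Anterior Primitive Streak cells (24), Mature Endoderm and Notochord cells were numerous enough to compare. In its 24 Mature Endoderm cells Trh was at 2500 CPM against 325 CPM, Sox17 at 452 against 283 CPM and the epithelial adhesion gene Epcam at 590 against 292 CPM, while Lhx1 was at 523 against 1020 CPM and Gsc at 168 against 250.8 CPM. In its 10 Notochord cells the signal Shh was at 216 CPM (56 UMIs) against 2.76 CPM (2 UMIs) and T at 537 against 340 CPM, and no UMI of Sox17, Eomes or Cer1 was counted. These are values of a single gastruloid with no replicate.

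Some defining genes of other cell types were at or near 0 at day 3. Over the 232 cells of MULTI-seq 3, no UMI of the visceral endoderm genes Ttr and Apoa1, the endothelial gene Cdh5 or the germ cell gene Dppa3 was counted, which limits each to 0.421 CPM. The neural gene Sox1 was at 0.28 CPM against 7.83 CPM in Early Neurectoderm cells, the notochord genes Noto and Shh were at 2.53 and 0.70 CPM, and the paraxial mesoderm gene Msgn1 at 0.14 CPM. Whole lists were not at 0. The visceral endoderm list summed to 15.3 CPM with 7 of 12 genes at 0 (0 to 40.9 CPM over the 24 gastruloids), against 6.74 CPM in Primitive Streak cells. The cardiac and head mesoderm list summed to 22.6 CPM with 5 of 12 at 0, the endothelium and blood list to 60.1 CPM with 5 of 12 at 0, and the germ cell list to 58.4 CPM with 2 of 8 at 0. The neurectoderm list summed to 298 CPM with 1 of 12 at 0 (76.3 to 428 CPM), above the 180 CPM of Early Neurectoderm cells and the 112 CPM of Primitive Streak cells. The neurectoderm markers Sox1, Pax6, Sox3 and Sox21 were low, at 0.26, 0.13, 3.07 and 11.8 CPM. Those values are from the 292 cells of both day 3 experiments that matched anterior primitive streak on the original atlas. The sum is thus not a measure of these markers. The presomitic list summed to 209 CPM and the neuromesodermal and caudal list to 500.0 CPM (162 to 1564 CPM), with no gene at 0. The neuromesodermal and caudal list includes T, which stood at 361 CPM in the same 292 cells. The part of other cells in the levels was not tested.

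The number of markers detected per cell was counted at equal depth. Each cell was thinned to 5000 UMIs so that cells of different depth could be compared; no cell was left out, and the median depth before thinning was 29139 UMIs in these cells and 27596 UMIs in Early Neurectoderm cells, which should lack the markers. Of the 232 day 3 cells of MULTI-seq 3, 97.0% held Lhx1 (exact 95% interval 93.9% to 98.8%), 74.1% Gsc (68.0% to 79.6%), 45.7% Eomes (39.2% to 52.3%) and 42.7% Foxa2 (36.2% to 49.3%). In Early Neurectoderm cells the same shares were 0.37%, 1.46%, 1.76% and 1.39%. Without thinning the shares in Anterior Primitive Streak cells were 100%, 97.4%, 89.7% and 83.2%. Intervals cover counting error only.

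All 232 cells held at least 1 of the 4 markers after thinning: 28 held 1, 76 held 2, 90 held 3 and 38 held all 4. Without thinning 170 held all 4, 56 held 3, 5 held 2 and 1 held 1, so a marker missing at the lower depth does not show that a cell lacks it. No marker was found in 74.9% of Primitive Streak cells and 95.3% of Early Neurectoderm cells, but in only 8.53% of the 1126 Early Nascent Mesoderm cells. Of these 1126 cells 641 held Eomes and 17 held all 4 markers, so holding a marker is not particular to Anterior Primitive Streak cells. In the 232 Anterior Primitive Streak cells Sox17 was held by 35.3% (29.2% to 41.9%, and 49.1% unthinned), Trh by 20.3% and Cer1 by 18.5%, against 0.07%, 2.27% and 0% in Early Neurectoderm. Mesp1 was held by 22.8% and T by 71.6% (32.2% for T in Early Neurectoderm). Sox17 was found in 17.0% of the 53 cells with Mesp1 and in 40.8% of the cells without it, and in 40.1% of the 172 cells with Gsc against 21.7% of those without. In the 107 cells of the 10X experiment, Sox17 was found in 30% of the 10 cells with Mesp1 and in 44.3% of the others, and in 44.6% of the cells with Gsc against 39.4% without. In the 37 cells of days 3.5 and 4 the order for Gsc was the other way, 42.1% against 55.6%. Cells share libraries and gastruloids, so these are descriptions of how the markers were spread.

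**Figure D2:**
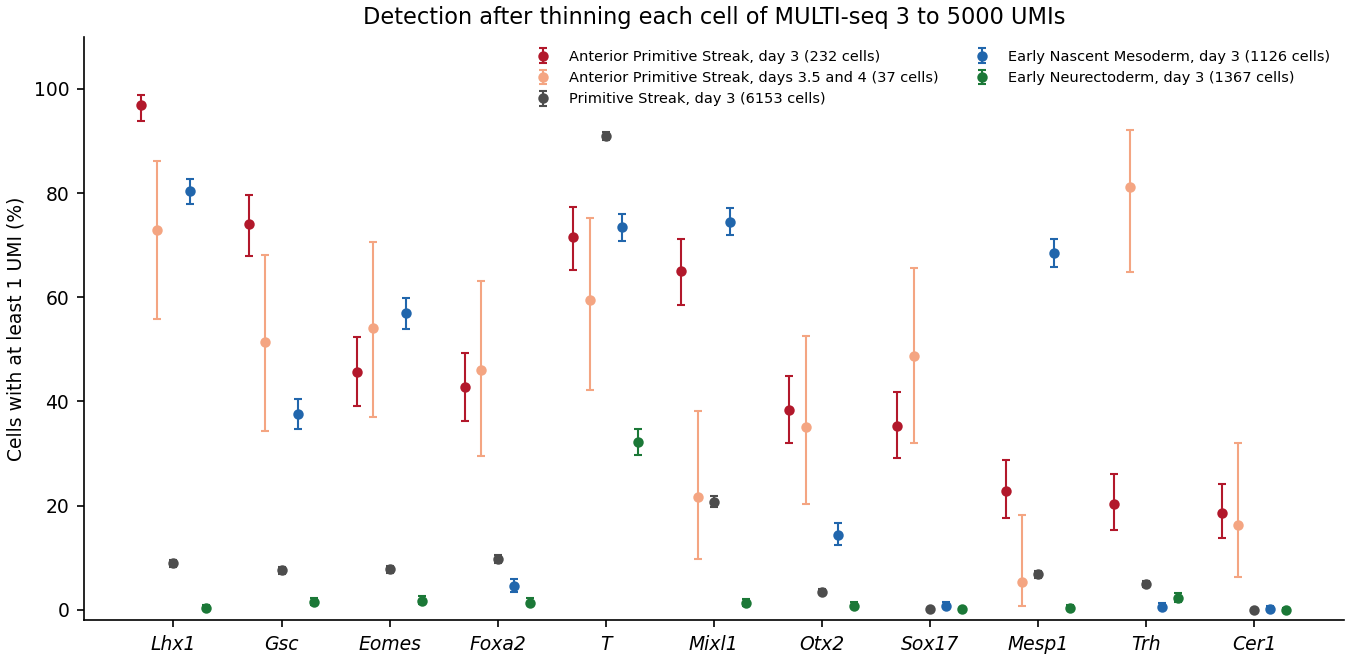
Percentage of cells with at least 1 UMI of 11 genes after thinning each cell of MULTI-seq 3 to 5000 UMIs, for Anterior Primitive Streak cells of day 3 and of days 3.5 and 4 together and for 3 other named types of day 3. Bars are exact 95% binomial intervals. Lhx1 and Gsc lead in day 3 cells at 97.0% and 74.1%, and Trh stands at 81.1% in the 37 later cells against 20.3% at day 3.

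The cells that matched other parts of the embryo atlas differed in the same genes. Over both day 3 experiments, 14 cells that matched definitive endoderm held Sox17 in 64.3% and Emb in 100% after thinning, against 36.6% and 67.5% of the 292 cells that matched anterior primitive streak. The 25 cells that matched nascent mesoderm held Mesp1 in 60% and Sox17 in 8%, against 15.1% and 36.6%. The match was made on the same expression values, so these shares are not independent of it.

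The share of Anterior Primitive Streak cells was highest at day 3 and lower in every later group. Among gastruloids with at least 30 cells, the day 3 gastruloids of MULTI-seq 3 held 2.33% ± 2.06 (SD, n = 24), with a lowest value of 0.353%, a median of 1.80% and a highest of 10.6%, and each of the 24 held at least 1 such cell. At day 3.5 the share was 0.315% ± 0.446 (SD, n = 16), with a median of 0.137% and a highest value of 1.64%, and 8 of 16 gastruloids held any. At day 4 it was 0.121% ± 0.160 (SD, n = 16), with a highest value of 0.548%, and again 8 of 16 held any. The share at day 3.5 was lower than at day 3 by 2.01 percentage points (permutation test, 100000 resamples, two-sided p = 2e-05, adjusted p = 0.00012 over 6 comparisons), and 16 of 16 day 3.5 gastruloids lay below the day 3 median. Day 3 was a pool with lanes of its own, so day and pool cannot be told apart in this comparison. With cells named by their match on the extended atlas in place of the authors' cluster name, the difference was -1.15 percentage points and did not pass (permutation test, adjusted p = 0.218). Of the 989 cells so named, 46.8% were Mature Endoderm and 27.9% Anterior Primitive Streak by the authors' clusters, so that setting counts a different set of cells.

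From day 3.5 to day 4, which shared a pool and its lanes, the mean share moved by -0.193 percentage points (permutation test, p = 0.106, adjusted p = 0.318), and the ranges overlapped. With names from the extended atlas the direction turned, to 0.672 percentage points (permutation test, adjusted p = 0.34), and on a logit scale, where gastruloids at 0 take values set by their cell number, the fall passed (-1.12 log odds, permutation test, adjusted p = 0.00057). At day 4.5 a single gastruloid of 16 in MULTI-seq 3 held any of these cells (2 of its cells, 0.449%). At day 5 there was none among 11075 cells in MULTI-seq 3, which allows a share of up to 0.0271%, and none among 9634 cells in MULTI-seq 1, which allows up to 0.0311%. In MULTI-seq 2, 1 of 11 gastruloids at day 4 and 1 of 12 at day 4.5 held any, and the 4 comparisons that involve day 4.5 or MULTI-seq 2 had adjusted p = 1 (permutation test). The single 10X lane of day 3 held 107 of 3058 cells, 3.50% (exact 95% interval 2.88% to 4.21%), against 2.33% and 2.17% on the lanes of day 3 in MULTI-seq 3. Its cells were shallower, with a median of 16661 UMIs against 29139 UMIs, and had 4.90% mitochondrial counts against 2.17%. The interval of this lane and the limits at day 5 cover counting error only, and not the spread between gastruloids. The difference between the experiments was not tested.

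**Figure D3:**
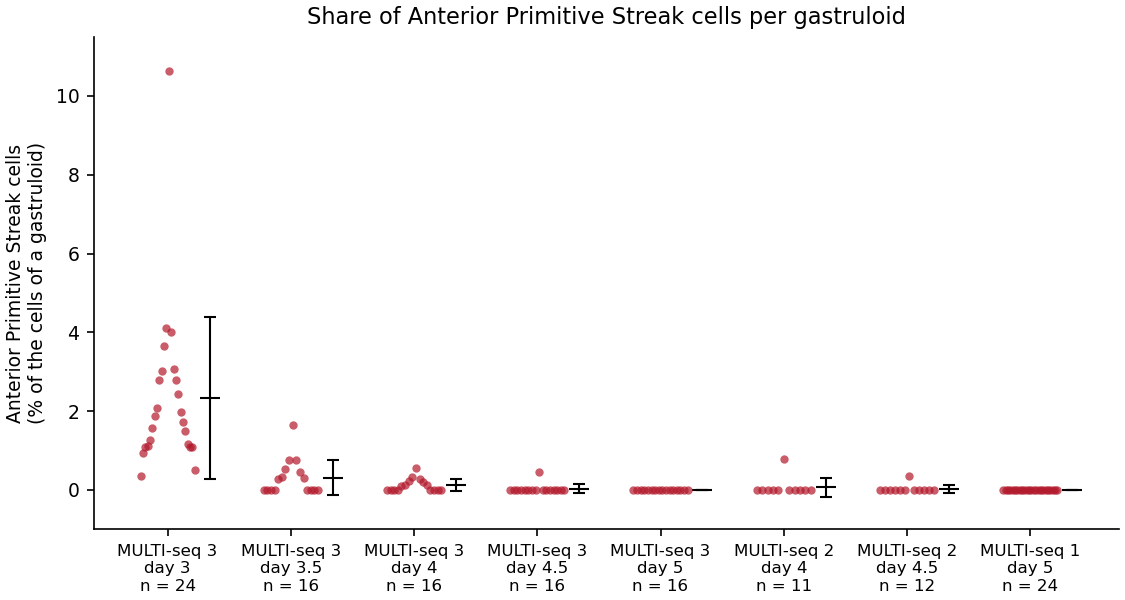
Share of Anterior Primitive Streak cells in each gastruloid with at least 30 cells, in percent of its cells, by experiment and day. Points are gastruloids and black bars the mean ± SD. The 24 day 3 gastruloids range from 0.353% to 10.6%, no value of a later day exceeds 1.64%, and both day 5 groups are at 0.

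The spread of the share between day 3 gastruloids rested largely on 1 of them. Its variance was 4.39 times the variance that counting cells alone gives, and 1.43 times without the gastruloid at 10.6%, with no test of either ratio; the second highest share was 4.12%. Without that gastruloid the mean was 1.97% ± 1.09. The authors assigned each gastruloid a class. The 11 day 3 gastruloids they called mesodermal held 3.57% ± 2.51 (SD, median 3.01%) and the 13 they called neural 1.28% ± 0.533 (SD, median 1.12%), and the ranges, 1.18% to 10.6% and 0.353% to 2.08%, overlapped. The class rests on the cells of the gastruloid, these included, so no test is given.

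Across the 24 day 3 gastruloids the share followed that of Early Nascent Mesoderm and ran opposite to that of Early Neurectoderm. With Early Nascent Mesoderm, Pearson's r was 0.768 (permutation p = 1e-05, the smallest that 100000 resamples can give, adjusted p = 3e-05 over 3 relations) and Spearman's rho 0.830 (p = 2e-05). It was 0.807 without the 2 gastruloids farthest from the median and 0.800 with the second share taken among the remaining cells. Within the authors' classes r was 0.684 in the 11 mesodermal gastruloids (0.480 without the highest share) and 0.610 in the 13 neural ones (0.552 without the highest share). The classes rest on the same cell shares, so these are given with no test. With Early Neurectoderm r was -0.605 (adjusted permutation p = 0.00118) and rho -0.778, and -0.787 without 2 gastruloids. Within the classes r was -0.687 in the 13 neural gastruloids (-0.654 without the highest share) and -0.473 in the 11 mesodermal ones (-0.029 without the highest share); the difference between them was not tested.

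With Primitive Streak the relation over all gastruloids rested on a few of them, and the classes had values of opposite sign. Over all 24, r was -0.513 (permutation p = 0.0161, adjusted p = 0.0161) but rho was -0.120 (p = 0.575), and without the 2 farthest gastruloids r was 0.018. Within the classes r was -0.877 in the mesodermal gastruloids (-0.767 without the highest share, rho -0.773) and 0.726 in the neural ones (0.710 without the highest share, rho 0.611). The difference between the classes was not tested.

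**Figure D4:**
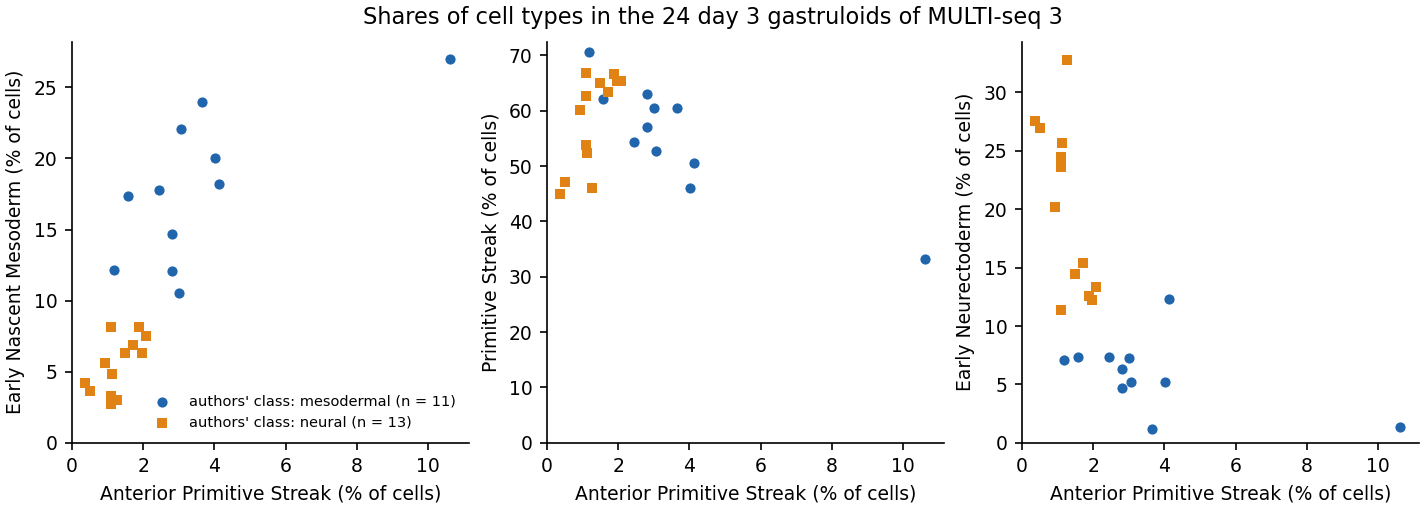
Share of Anterior Primitive Streak cells (x axis, percent of cells) against the shares of Early Nascent Mesoderm, Primitive Streak and Early Neurectoderm (y axes, percent of cells) in the 24 day 3 gastruloids of MULTI-seq 3. Circles are gastruloids the authors called mesodermal and squares those called neural. The point at 10.6% also has the highest share of Early Nascent Mesoderm and the lowest of Primitive Streak.

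Between day 3 and day 3.5, 6 of 10 measured anterior streak genes and Pou5f1 fell in Anterior Primitive Streak cells, and Trh, Emb and Krt8 rose. The counts of each gastruloid's cells were summed, and 8 gastruloids of day 3.5 (20 cells) were compared with 24 of day 3 (137 cells) by edgeR's quasi-likelihood test. The 8 of day 3.5 held 1, 4, 1, 2, 1, 1, 8 and 2 such cells, and those of day 3 held 1 to 24. The minimum of 10 cells per gastruloid set for this fit left too few gastruloids, so every gastruloid with at least 1 cell was used. The smallest sum was 24423 UMIs, and a gene needed about 110 CPM in at least 8 gastruloids to be tested. A gene could thus qualify through some of the 24 day 3 gastruloids alone, whereas one high only at day 3.5 needed all 8. The counts of rises and falls in a list depend on that filter. Of 1555 genes tested, 275 passed an adjusted p of 0.05 (17.7%), 172 of them higher at day 3.5 (11.1%) and 103 lower (6.62%). The median log2 change over all genes was 0.002. The count was 122 without lane A of day 3, 168 without lane B of day 3, and 90 with cells matched to the anterior streak of the extended atlas. With the day went the match on the original atlas, from 4.76% definitive endoderm in all 378 day 3 cells to 55% in the 20 of day 3.5. The 378 cells include those of the 10X lane and barcode doublets. On the extended atlas no cell of the 433 matched definitive endoderm. The depth of the cells went from a median of 29139 to 43334.5 UMIs. The part of match and depth in the result was not tested, and day and pool cannot be told apart.

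Trh rose most. It was at 0 to 325 CPM in the 24 day 3 gastruloids, with a median of 15.1 CPM and 7 of them at 0, and at 111 to 2431 CPM with a median of 678 CPM in the 8 of day 3.5 (log2 change 3.88 ± 0.41 SE, edgeR adjusted p = 4.61e-09). All but the lowest day 3.5 gastruloid lay above the highest day 3 value. Emb, which encodes the membrane glycoprotein embigin, had a median of 311 CPM (95.2 to 579) at day 3 and 727 CPM (448 to 1181) at day 3.5, with a log2 change of 1.36 ± 0.20. Of 8 measured genes of the definitive endoderm list (24 in all), 3 rose, Trh, Emb and the keratin Krt8 (1.27 ± 0.25), and 1 fell, Gata6 (-0.90 ± 0.30); the median was 0.58. Gata6 was past the threshold in 6 of 14 other settings. Sox17 did not pass: its median was 180.2 CPM at day 3 (0 to 351) and 192 CPM at day 3.5 (47.3 to 847), a log2 change of 0.47 ± 0.42 (edgeR adjusted p = 0.482).

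The measured genes of the anterior streak list moved the other way: 6 of 10 (18 in all) fell and none rose, with a median log2 change of -0.87 against 0.002 for all genes. Members such as Eomes were measured through day 3, where they are high, so the count and the median describe these genes and do not test a direction. Gsc had a median of 290.1 CPM at day 3 (0 to 666) and 92.7 CPM at day 3.5 (51.3 to 223), a log2 change of -1.39 ± 0.24 (edgeR adjusted p = 4.92e-05). Mixl1 fell from a median of 286 to 48.6 CPM (-1.56 ± 0.32) and Eomes from 157 to 43.9 CPM (-1.07 ± 0.30). Lhx1 (-0.93 ± 0.23), Otx2 (-1.05 ± 0.36) and the growth factor gene Fgf5 (-0.81 ± 0.20) also fell. The ranges of each of these genes overlapped between the days. Foxa2 did not pass, with medians of 139 and 119 CPM (-0.13 ± 0.25, edgeR adjusted p = 0.785). Nor did T, with medians of 347 and 486 CPM (0.51 ± 0.22, edgeR adjusted p = 0.104), though its rise passed in 2 of 14 other settings. Eomes missed the threshold in 2 of 13 other settings, Lhx1 in 3 of 14 and Otx2 in 8 of 14. A list that the naming of the cells drew on is no independent evidence of its direction.

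Pou5f1 fell from a median of 446 CPM (123 to 763) to 97.5 CPM (71.6 to 230), a log2 change of -1.54 ± 0.21 (edgeR adjusted p = 1.42e-06). Of 4 measured pluripotency genes 2 fell, Pou5f1 and Otx2, and 1 rose, the DNA methyltransferase Dnmt3b (0.76 ± 0.21). Otx2 is also counted in the anterior streak list. Without lane D of the pool of days 3.5 and 4 the value for Dnmt3b was -0.086. The other large falls were of Lmo1, a LIM-only transcriptional cofactor (-3.19 ± 0.52), Adamts9, a secreted metalloprotease (-2.27 ± 0.38), the metallothionein Mt1 (-2.06 ± 0.48), the serine and asparagine synthesis enzymes Psat1 (-1.61 ± 0.30) and Asns (-1.52 ± 0.29), and the zinc finger factor Zic5 (-1.33 ± 0.28). The other large rises were of Defa30 (2.90 ± 0.41), whose reads near-identical defensin genes could share, the VEGF receptor Flt1 (1.89 ± 0.27), the proliferation marker Mki67 (1.48 ± 0.22), S100a11 (1.47 ± 0.22), the linker histone Hist1h1e (1.42 ± 0.22), AY036118 (1.40 ± 0.33), the proteasome activator Psme2 (1.40 ± 0.24) and the interferon-induced membrane gene Ifitm1 (1.29 ± 0.22).

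G2/M genes of the cell cycle changed as well. Of 15 measured G2/M genes 9 rose and none fell (median 0.73), among them Cenpf (1.24 ± 0.23) and Cenpe (1.24 ± 0.25). That is 60% called, against 17.7% of all genes tested. Of 10 measured S phase genes 2 fell, Pcna (-0.65 ± 0.20) and Rrm2 (-0.75 ± 0.26), and this 20% is near the share of all genes. By the authors' phase calls 55% of the 20 day 3.5 cells were in G2/M, against 39.2% of the 232 day 3 cells. None of 10 measured glycolysis genes passed (median -0.001). Few genes of the signalling lists reached the level needed: 3 of 22 Nodal pathway genes and 2 of 23 Wnt genes, none called, 3 of 20 BMP genes and 2 of 20 FGF genes. Of the BMP genes 1 was lower, Fst (-0.75 ± 0.24, lost in 6 of 14 other settings), which is also in the primitive streak list. Of the FGF genes 1 was lower, Fgf5, which is also in the anterior streak list.

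Most of these changes were not shown to differ from those in the Primitive Streak cells of the same gastruloids. In a fit with each gastruloid as a block, the change in Anterior Primitive Streak cells differed from that in Primitive Streak cells for 33 of 1555 genes (2.12%), 14 with the larger log2 change in Anterior Primitive Streak cells (0.9%) and 19 with the smaller (1.22%). Gsc, Eomes and Lmo1 were not among them: their log2 changes in Primitive Streak cells were -1.83, -1.64 and -3.18, and the differences were 0.23 ± 0.42, -0.03 ± 0.58 and 0.39 ± 0.95. Changes within a type come from a fit of that type alone, with its own scaling. The differences come from the joint fit of both types, so they need not equal the gap between the separate changes.

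Emb and Trh rose in Anterior Primitive Streak cells by more than in Primitive Streak cells. For Emb the medians in Primitive Streak cells were 115 CPM at day 3 and 83.8 CPM at day 3.5, a log2 change of -0.58, and the difference was 1.72 ± 0.21 (edgeR adjusted p = 1.5e-07). For Trh they were 16.4 and 18.7 CPM, a change of 0.95, and the difference was 3.28 ± 0.50 (edgeR adjusted p = 2.17e-05). Pou5f1 fell further in Anterior Primitive Streak cells, by -1.54 against -0.80 in Primitive Streak cells in the separate fits. The difference in the joint fit was -0.97 ± 0.20 (edgeR adjusted p = 0.00251). The G2/M genes Mki67 (difference 0.82 ± 0.23) and Cenpf (0.81 ± 0.23) had edgeR adjusted p = 0.0449 and 0.0466, and passed in 6 and 4 of 9 other settings; Pou5f1 passed in 7.

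The opposite pattern was seen for the homeobox gene Msx1, a BMP target, and for Sp5. Msx1 was at a median of 3.34 CPM at day 3 and 18.2 CPM at day 3.5 in Primitive Streak cells, a rise of 2.39, and at 91.9 and 89.4 CPM in Anterior Primitive Streak cells, a log2 change of -0.17 ± 0.35 (difference -2.84 ± 0.49, edgeR adjusted p = 0.00017). Sp5 was at 72.6 and 131 CPM in Primitive Streak cells, a rise of 0.72, and at 391 and 270.4 CPM in Anterior Primitive Streak cells, a change of -0.41 ± 0.20 (difference -1.33 ± 0.23, edgeR adjusted p = 0.00017). For both genes the medians of the types lay closer together at day 3.5. Emb, Trh, Msx1 and Sp5 passed in 9 of 9 other settings of this fit, together with Fth1, Ptma and Tbca. For Ptma the separate fits gave close changes, -0.27 in Anterior Primitive Streak and -0.24 in Primitive Streak cells. Its difference in the joint fit was -0.26. Most of the 33 genes likewise had a joint difference below the gap between their separate changes, though Trh did not. For Tbca the separate changes were -0.47 and -0.12, and the joint difference was -0.59. The part of the scaling in these differences, and in the split into 14 larger and 19 smaller changes, was not tested. The count of 33 was 8 without lane A of day 3, 10 without lane B of the pool of days 3.5 and 4, and 15 without its lane D.

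**Figure D5:**
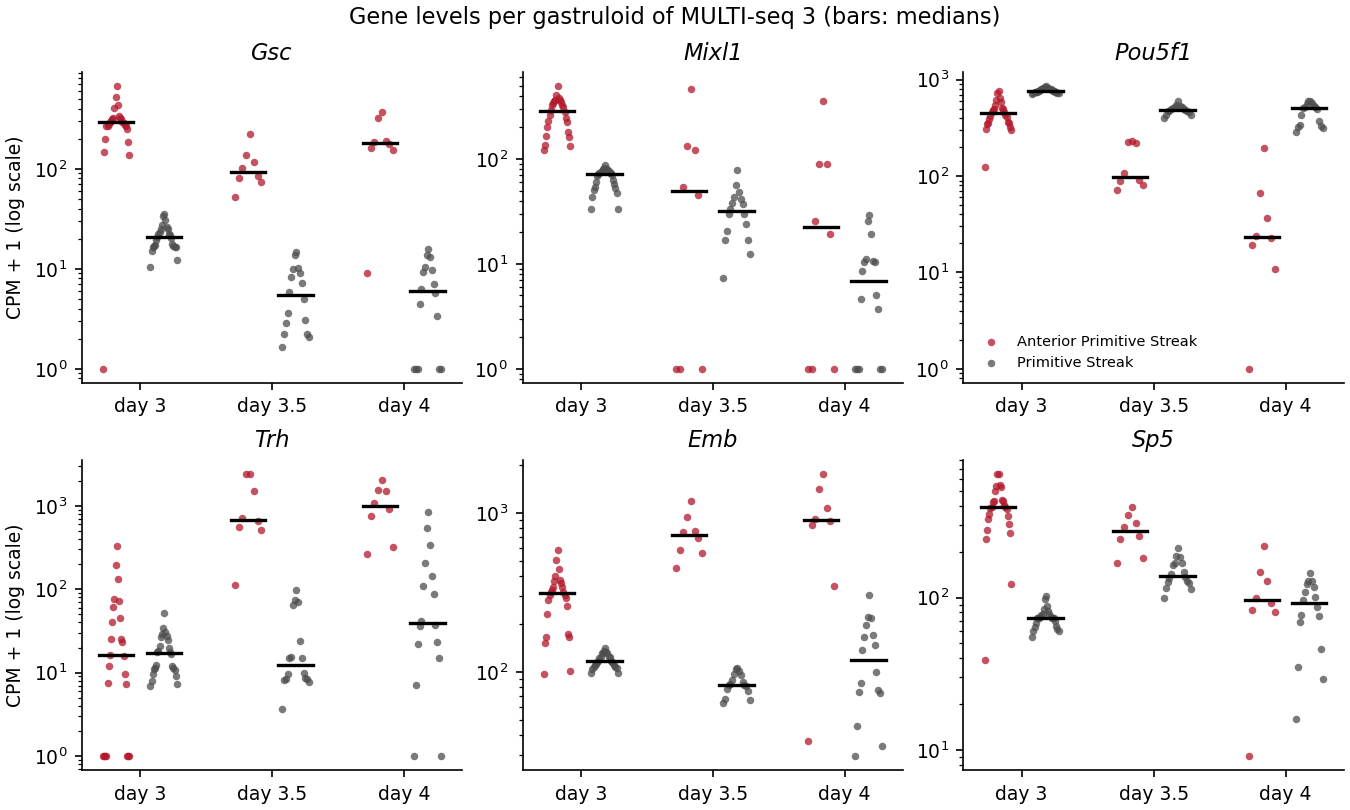
Levels of 6 genes in Anterior Primitive Streak and Primitive Streak cells of the MULTI-seq 3 gastruloids at days 3, 3.5 and 4, as CPM + 1 on a log scale. Points are gastruloids with at least 1 cell of the type and bars are medians. Trh and Emb are higher at day 3.5 than at day 3 in Anterior Primitive Streak cells (medians 678 against 15.1 CPM and 727 against 311 CPM), Pou5f1 is lower, and Sp5 converges between the types.

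Between day 3.5 and day 4, in gastruloids of 1 pool, few genes passed. With 8 gastruloids and 20 cells at day 3.5 and 8 gastruloids and 17 cells at day 4, 11 of 1136 genes tested passed (0.968%), 5 higher at day 4 (0.44%) and 6 lower (0.528%), by edgeR's quasi-likelihood test. It was 2 to 31 when 1 lane was left out (31 without lane D, 2 without lane C) and 47 with DESeq2. The smallest sum was 24969 UMIs, and a gene needed about 124 CPM in at least 8 gastruloids to be tested. The gastruloids held 1 to 8 such cells at day 3.5 and 1 to 3 at day 4.

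Fst, which encodes the activin and BMP antagonist follistatin, fell most. Its median was 589 CPM at day 3.5 (0 to 1379) and 16.7 CPM at day 4 (0 to 384, with 3 of 8 gastruloids at 0), a log2 change of -2.91 ± 0.61 (edgeR adjusted p = 0.0149). Sp5 fell from 270.4 CPM (167 to 394) to 94.7 CPM (8.13 to 215), by 1.56 ± 0.31 on the log2 scale. The other falls were of the tetraspanin Cd63 (-1.49 ± 0.36), the nuclear gene Chchd10 of a mitochondrial protein (-1.26 ± 0.29), Bex1 (-1.14 ± 0.24) and the ribosomal protein gene Rps12 (-0.42 ± 0.10). The chromatin gene Hmga2 rose from a median of 83.0 to 541 CPM (2.20 ± 0.42, edgeR adjusted p = 0.00864), as did the tubulin gene Tuba1a (1.41 ± 0.32), the glypican Gpc3 (1.33 ± 0.23), the thymosin gene Tmsb10 (0.80 ± 0.14) and the histone gene H3f3b (0.55 ± 0.13). Each of these 11 calls was lost in some of the other settings that tested the gene: Rps12 in 7 of 11, Cd63 in 6 of 9, H3f3b in 6 of 11, Chchd10 and Tuba1a in 5 of 9 each and Bex1 in 5 of 10. Fst lost it in 4 of 9, Tmsb10 in 3 of 11, Sp5 in 3 of 10, Hmga2 in 2 of 7 and Gpc3 in 1 of 7.

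Gsc and Lhx1 did not pass between these days, and Foxa2 and Eomes were not among the genes tested. Eomes had a median of 43.9 CPM at day 3.5 (0 to 105) and 317 CPM at day 4 (71.8 to 422), and Foxa2 of 119 and 126 CPM. Gsc had medians of 92.7 and 181 CPM (0.71 ± 0.38, edgeR adjusted p = 0.375) and Lhx1 of 421 and 787 CPM (0.54 ± 0.41, adjusted p = 0.57). Trh had medians of 678 and 999.7 CPM (-0.13 ± 0.42, adjusted p = 0.92), and T of 486 and 110 CPM (-1.70 ± 0.44, adjusted p = 0.0647, past the threshold in 3 of 10 other settings, among them the fit without lane D). None of 7 measured endoderm genes passed, and 2 of 5 measured primitive streak genes fell, Fst and Sp5. No difference of these changes from Primitive Streak cells passed (0 of 1136, 0%, by edgeR; 142 had an unadjusted p under 0.05), and 8 did without lane D.

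Between the classes of day 3 gastruloids, no gene of Anterior Primitive Streak cells passed. With 11 mesodermal and 13 neural gastruloids, 0 of 1725 genes tested passed by edgeR (0%), 59 had an unadjusted p under 0.05, and DESeq2 gave 0. Without the filter on low counts, 33 genes passed. Gsc had medians of 286 and 295 CPM (log2 difference -0.01 ± 0.17), Lhx1 of 1185 and 1039 CPM (0.08 ± 0.12), Foxa2 of 137 and 141 CPM (0.19 ± 0.20) and Eomes of 151 and 162 CPM (-0.20 ± 0.20), with edgeR adjusted p = 1 for each. Pou5f1 had medians of 394 and 495 CPM (-0.33 ± 0.13, edgeR adjusted p = 1).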

How the data were processed

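Single cells of mouse gastruloids were measured by 10x 3' RNA sequencing on 18 lanes; 4 further samples, of days 3 and 3.5 in MULTI-seq 2, are not analysed here. The authors deposited UMI counts per gene and cell, and the file headers name Cell Ranger 6.0.0; reads were mapped to mm10, per the submitters' processing notes, which also name Seurat. Their cell table, as deposited, holds cell names, day and barcode calls, a fraction for each atlas match (the share of nearest embryo cells with that name), and cell cycle scores. The labels and headers give no further detail of the fraction and the scores.

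Cells were joined to counts by lane and barcode, and 9 cells without a match were dropped. The gastruloid was the replicate, with its cells summed over lanes, which are technical splits of a pool. Shares used gastruloids of at least 30 cells and permutation tests (100000 resamples, two-sided). Gene tests used edgeR 4.0.16 (quasi-likelihood, Benjamini-Hochberg adjustment over all genes tested) and DESeq2 1.42.0 as an alternative, in R 4.3.3. The planned minimum of 10 cells per gastruloid could not be fitted, so fits with at least 1 cell were chosen after seeing the data. Log2 ratios of CPM used a pseudocount of 1. Named genes were the 10 largest rises and falls past an adjusted p of 0.05 with at least 20 CPM in the higher group (gene models, mitochondrial and Y genes and Xist left out), up to 5 genes of each list, the 10 largest ratios to Primitive Streak at 50 CPM or more, and the 4 markers. The members and gene lists were chosen with earlier results of these data known. The gene tests were tested on simulated data.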

Additional observations from a re-analysis of the deposited data

Results flagged for a closer look

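In 6 of 38 groups of 4 to 10 gastruloids examined, 1 gastruloid lay far from the others, where chance gives about 1 in 20 for normally spread, independent values; these sums hold zeros and the same gastruloids recur, so that rate may not apply. At day 4 these were Fst at 384 CPM, Lhx1 at 2403 CPM, Mixl1 at 359 CPM and Pou5f1 at 197 CPM, each the highest of 8 gastruloids. At day 3.5 they were Mixl1 at 460 CPM and Sox17 at 847 CPM. Each of these gastruloids held 1 or 2 Anterior Primitive Streak cells, with sums of 26102 to 101673 UMIs.

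The change from day 3 to day 3.5 differed between Anterior Primitive Streak and Primitive Streak cells by the test of the difference itself (edgeR, adjusted p under 0.05) for 33 genes, of which 13 are named here. The log2 change was larger in Anterior Primitive Streak cells by 3.28 for Trh, 1.72 for Emb, 1.23 for Dnmt3b, 1.11 for the spindle gene Prc1, 1.04 for the mitotic kinase Aurka, 0.95 for Cenpe, 0.82 for Mki67 and 0.81 for Cenpf. The difference was -2.84 for Msx1, -1.33 for Sp5, -1.02 for the intermediate filament gene Vim, -0.97 for Pou5f1 and -0.92 for Fst. In 9 other settings of this fit Trh, Emb, Msx1 and Sp5 passed in 9, Dnmt3b, Pou5f1 and Prc1 in 7, Mki67 and Vim in 6, Cenpe in 5, Cenpf in 4, and Aurka and Fst in 2.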

How the results depend on the processing

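No paired analysis was possible because, between days or classes, lanes are technical splits shared by every gastruloid of a pool and no number pairs gastruloids; only the cell types of 1 gastruloid were blocked. The share difference of day 3.5 against day 3 kept its direction in all settings run and missed the threshold with names from the extended atlas (-1.15 points). With those names day 4 against day 3.5 was 0.672 points, day 4.5 against day 4 in MULTI-seq 2 was -1.96, and MULTI-seq 3 against MULTI-seq 2 was -0.156 at day 4 and 0.261 at day 4.5; with the original atlas the day 4 value was -0.243. On a logit scale, where 0.5 cells were added, so that gastruloids at 0 take values set by their cell number, the differences were -1.12 (day 4 against 3.5), -0.936 (day 5 against 4.5), -0.589 (MULTI-seq 2) and -1.26 (MULTI-seq 3 against 2 at day 4). That last comparison was -0.0115 points at a minimum of 100 cells. MULTI-seq 3 against MULTI-seq 2 at day 4.5 was -0.0319 to 0.0281 without single lanes and 0.0485 (log2) by edgeR. The relation to Primitive Streak was 0.018 without 2 gastruloids, and the spread 1.43 without the highest. Genes called from day 3.5 to day 4 (11) numbered 47 with DESeq2, 77 without the filter, 91 with all groups in one fit, 1 at a minimum of 2 cells, 4 and 7 with cells matched on the extended and original atlas, and 2 to 31 without single lanes. From day 3 to day 3.5 (275) they numbered 480 without the filter, 90 on the extended atlas and 122 to 260 without single lanes. Between classes 33 passed without the filter. Differences from Primitive Streak numbered 8 to 32 (days 3 to 3.5) and 0 to 8 (days 3.5 to 4) without single lanes. Dnmt3b changed by -0.086 without lane D and by at most 0.994 without another. The causes were not tested. Gene fits at minimums of 10 and 20 cells, fits between days at a minimum of 5, and gene fits involving MULTI-seq 2 were not run because too few cells were left. Depth limits the gene tests: a gene needed about 110 CPM in 8 gastruloids (day 3.5 against day 3), 124 CPM in 8 (day 4 against day 3.5) or 78.4 CPM in 11 (classes).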

Other observations

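The day 3 cells of the 10X experiment and of MULTI-seq 3 differed in level although they carry the same name and day. Over the summed cells of each, with no replicate in the 10X experiment, Trh was at 316 CPM in 10X and 97.0 CPM in MULTI-seq 3, Emb at 598 and 316 CPM, and Dkk1 at 240 and 131 CPM. Gsc was at 273 and 305 CPM and Sox17 at 224 and 179 CPM.

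At day 4 the values of the 17 Anterior Primitive Streak cells stood beside those of Mature Endoderm cells of the same pool as follows. Trh was at 1001 against 2507 CPM and Emb at 989 against 1599 CPM. Gsc was at 177 against 20.05 CPM. Sox17 was at 188 against 258 CPM, with a median of 85.8 CPM over the 8 gastruloids. The sum for Fst, 79.5 against 16.0 CPM, included 1 gastruloid at 384 CPM, and the median over the 8 gastruloids was 16.7 CPM. These are sums over cells with no test.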
